A study of Homo sapiens with 10 samples.

Results

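The 46 genes described here are interferon-stimulated genes, a list of symbols that was looked up among the human rows of a bulk RNA-seq gene table of xenotransplanted human microglia (hMG). The list comprises 3 transcription factors, 8 nucleic acid sensors and sensor-linked enzymes, 4 genes of ISG15 conjugation and 4 IFIT genes. It also holds 5 membrane-associated restriction factors, 9 other antiviral effectors, 3 genes around PARP9 and DTX3L, and 10 further induced genes. All 46 symbols were found among 36591 human rows (68836 rows with the mouse genes), and all 46 passed the filter on low counts, which left 15455 human genes for testing in all. The genes were listed by symbol rather than by a threshold on these counts, with earlier results of these data known.

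H9, a widely used line of human embryonic stem cells, was the source of the hMG, which were grafted on postnatal day 4 into mouse pups whose own microglia had been depleted with the CSF1R inhibitor BLZ945. At 6 months of age, live cells positive for CD11b and human CD45 were sorted from the brains and their RNA was sequenced. There were 5 libraries from AppHu hosts, which the labels write as Rag2KO-hCSF1KI-AppKI and number 3, 4, 6, 7 and 8, and 5 libraries from AppSAA hosts, numbered 4, 5, 6, 7 and 8. All hosts lacked Rag2, and with it mature T and B cells, kept their NK cells, and expressed human CSF1 from the mouse Csf1 locus. The AppHu allele carries a humanized Aβ sequence without a familial mutation, and the AppSAA allele adds the Swedish, Arctic and Austrian mutations and leads to Aβ plaques. The design therefore asks whether interferon-stimulated transcripts of hMG differ between a brain with and one without amyloid pathology. The grafted cells come from 1 cell line, host mice of both sexes were used, and sex was not a term in any fit.

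Type I interferons bind the IFNAR1 and IFNAR2 receptor chains, and the kinases JAK1 and TYK2 then phosphorylate STAT proteins. STAT2 and IRF9 are parts of the complex ISGF3, which binds the interferon-stimulated response element (ISRE) in the promoters of interferon-stimulated genes. Their products sense viral nucleic acids, block viral entry and replication, or feed back on the pathway, and microglia with high levels of these transcripts are a known state in mouse models of amyloid pathology.

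The ISRE itself was visible in the promoters of most of these genes. A RefSeq promoter window on GRCh38.p14, from 250 bases before to 50 bases after a transcription start, was found for 37 of the 46 genes. The ISRE core was searched as GAAANNGAAA on either strand (TTTCNNTTTC on the other), counting overlapping matches. It occurred in 27 of these 37 genes (73.0%) and in 1195 of all 27305 genes with such a window (4.38%). The windows without a match belong to STAT2, IRF9, IFI16, OAS1, HERC6, CMPK2, SAMD9L, IFI35, XAF1 and SP110. The following sites are shown because they lie in the promoter windows of widely used marker genes of the interferon response and of genes whose counts varied most between libraries or came closest to the threshold. Each runs 5′ to 3′ on the strand of its gene, and the capitals mark the core. They lie at chr1:1013380-1013409 (ISG15, forward strand), chr21:41420559-41420588 (MX1, forward), chr11:314024-314053 (IFITM1, forward), chr1:27672288-27672317 (IFI6, reverse), chr14:94110618-94110647 (IFI27, forward), chr10:89392510-89392539 (IFIT1, forward), chr2:6877622-6877651 (RSAD2, forward) and chr1:89065316-89065345 (GBP1, reverse).
ISG15: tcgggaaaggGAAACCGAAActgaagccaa
MX1: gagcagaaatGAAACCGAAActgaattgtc
IFITM1: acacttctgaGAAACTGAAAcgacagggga
IFI6: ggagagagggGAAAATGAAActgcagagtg
IFI27: atgtctgcagTTTCGGTTTCctggaaaatg
IFIT1: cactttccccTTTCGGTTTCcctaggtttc
RSAD2: ctgtttcaacTTTCAGTTTCacatgtggaa
GBP1: aacgaagtacTTTCAGTTTCatattactct
ISG15 and MX1 share the core with its inner bases, read on their own strands. PARP9 and DTX3L, which are transcribed away from each other, share 1 site at chr3:122564322-122564351. It is shown from both strands, since the same bases are counted as a match for each gene.
DTX3L: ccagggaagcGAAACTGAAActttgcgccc
PARP9: gggcgcaaagTTTCAGTTTCgcttccctgg
A match describes the letters in the window and is not evidence of binding in these cells.

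The libraries held 25040739 to 39641854 counts, of which 2.12% to 4.97% fell on mouse genes. The counts of the 46 genes ranged from 12 to 22224 per library. Values are given as CPM, the human counts of a library scaled to a common total after TMM normalization, and always in the order AppHu replicates 3, 4, 6, 7 and 8, then AppSAA replicates 4, 5, 6, 7 and 8. One library stood apart for these genes. In AppSAA replicate 4 the 46 genes took 0.940% of the human counts, against 0.415% to 0.514% in the other 4 AppSAA libraries and 0.404% to 0.601% in the 5 AppHu libraries. It was the highest of the 10 libraries for 44 of the 46 genes (95.7%), whereas it was the highest for 10.5% and the lowest for 8.86% of all human genes tested. IFI16, highest in AppHu replicate 3, and IFIT5, highest in AppSAA replicate 7, were the exceptions.

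**Figure D1:**
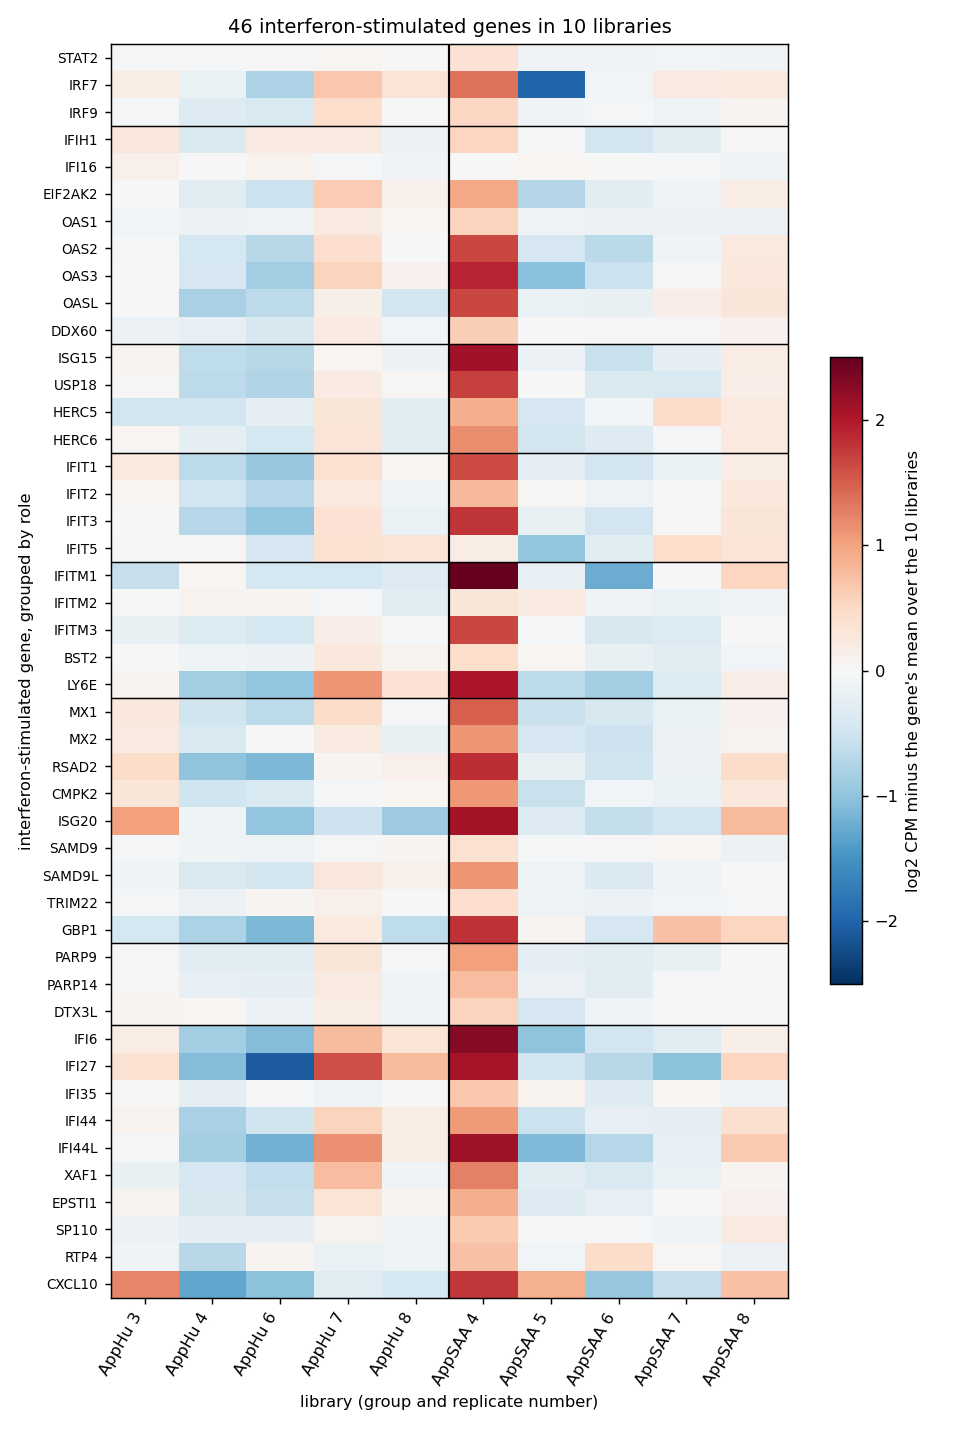
Each row is 1 of the 46 genes, grouped by role (black lines), and each column is 1 library. Colour gives log2 CPM minus the mean of that gene over the 10 libraries; the column of AppSAA replicate 4 is above the mean for all 46 genes, whereas AppHu replicates 4 and 6 are above it for 4 and 7 genes and AppSAA replicates 5, 6 and 7 for 7, 1 and 11.

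No gene of the list passed the threshold between the genotypes in the main test. With edgeR's quasi-likelihood test and Benjamini-Hochberg adjustment over all 15455 human genes, 0 of the 46 genes had an adjusted p below 0.05, where 12 of all genes did (0.0776%). An unadjusted p below 0.05 was found for 4 of the 46, namely GBP1, OASL, SP110 and IFITM1, and for 9.8% of all genes. DESeq2 called 1 of the 46 (GBP1), against 1.39% of all genes, and limma-voom called 0, against 0.336%. For 1204 of all genes, ISG15 among them, DESeq2 gave no adjusted p, and they count as not called. There was no gene of the list whose AppHu and AppSAA libraries did not overlap, a pattern shown by 2.49% of all genes. The smallest two-sided exact permutation p that 5 against 5 libraries can give is 0.00794. Of the 46 genes, only GBP1 had an exact permutation p below 0.05 (p = 0.0317), against 9.7% of all genes.

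The fold changes of the list had a common sign. The log2 fold change of AppSAA over AppHu was above 0 for 42 of the 46 genes, against 50.5% of all genes, with a median of 0.29 (all genes 0.0018) and a range from -0.057 (IFIT5) to 1.31 (IFITM1). Standard errors had a median of 0.27 for the 46 genes and 0.15 for all genes. This sign rested largely on 1 library. Without AppSAA replicate 4, the log2 fold change was above 0 for 17 of the 46 genes, against 49.6% of all genes, and the median was -0.050. In that fit 0 of the 46 genes passed the threshold, against 0.116% of all genes, and 1 had an unadjusted p below 0.05, against 9.18% of all genes. Leaving out AppHu replicate 7 as well, chosen after seeing the data, put 28 of the 46 above 0, against 7711 of all 15455 genes. There the median of the 46 was 0.027, and 5 had an unadjusted edgeR p below 0.05, against 1262 of all genes. The ratio of the AppSAA median to the AppHu median, which a single high library moves little, had a median of 0.998 over the 46 genes and was below 1 for 23 of them.

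**Figure D2:**
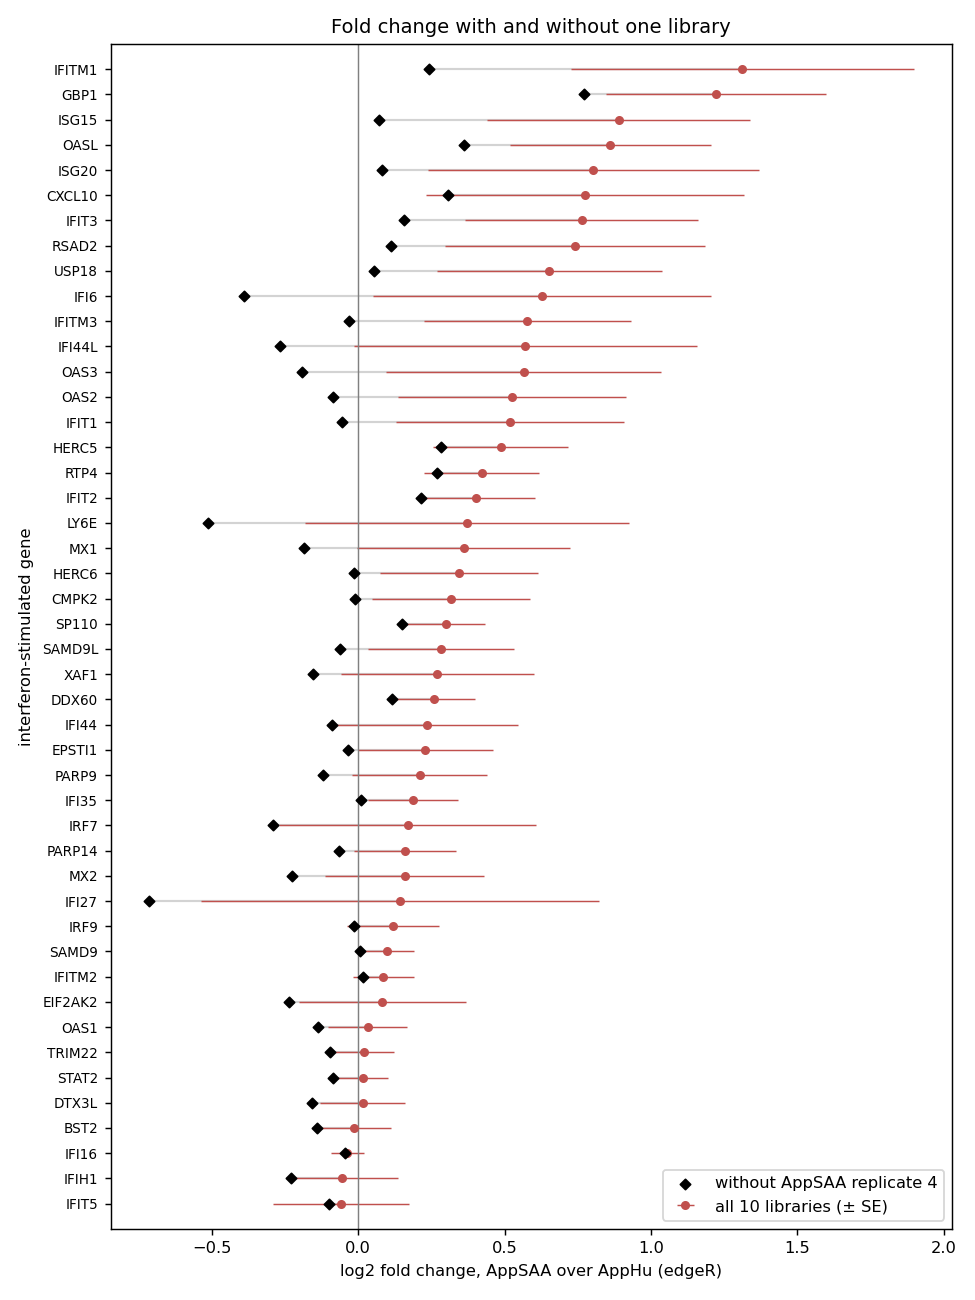
Red circles give the edgeR log2 fold change of AppSAA over AppHu from all 10 libraries with its standard error, and black diamonds give it without AppSAA replicate 4. The median moves from 0.29 to -0.050, and GBP1, at 0.77, is the highest without that library.

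How far single libraries sat from the others was measured as the median, over the 46 genes, of log2 CPM minus the mean of each gene. This median was 1.09 in AppSAA replicate 4, followed by 0.23 in AppHu replicate 7 and 0.17 in AppSAA replicate 8. It was 0.015, -0.029 and -0.094 in AppHu replicates 3 and 8 and AppSAA replicate 7. The lowest medians were -0.19 and -0.30 in AppSAA replicates 5 and 6 and -0.38 and -0.45 in AppHu replicates 4 and 6. Over all genes the same medians lay between 0.0069 and 0.023. Both genotypes thus had libraries on either side of the mean. AppHu replicate 7 was the second highest library for 27 of the 44 genes led by AppSAA replicate 4, and AppHu replicate 6 was the lowest of all 10 for 21 genes. The SD of log2 CPM between libraries had a median over the 46 genes of 0.32 in AppHu, 0.63 in AppSAA and 0.27 in AppSAA without replicate 4, against 0.21, 0.22 and 0.21 over all genes.

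**Figure D3:**
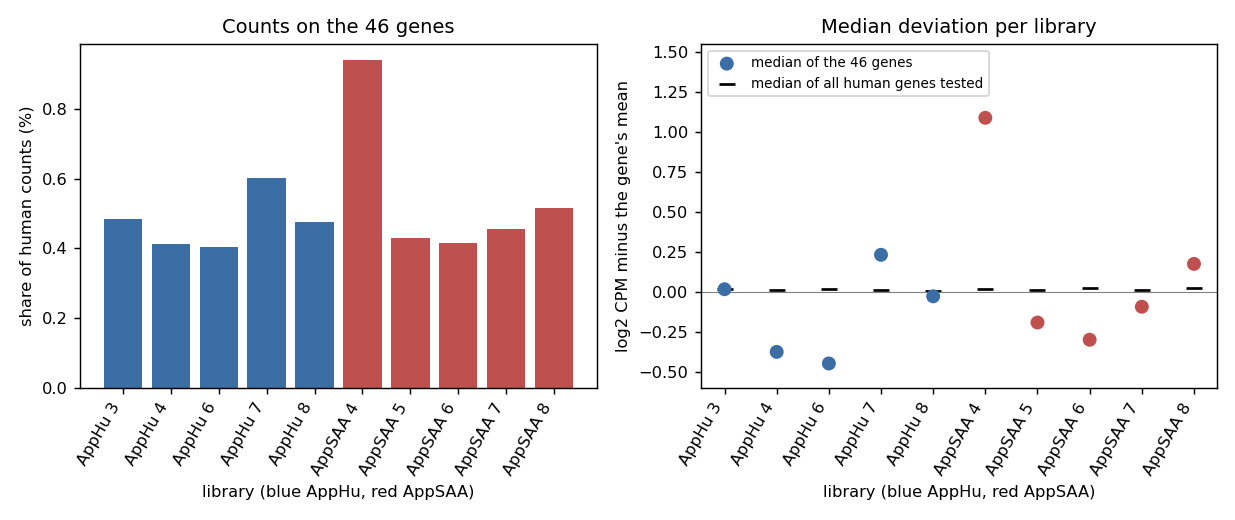
The left bars give the share of human counts on the 46 genes in each library, in percent. On the right, circles give the median over the 46 genes of log2 CPM minus the mean of each gene, and dashes the same median over all human genes tested; AppSAA replicate 4 reaches 0.940% and 1.09, and no other library exceeds 0.601% and 0.23.

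Across roles, the excess of AppSAA replicate 4 was uneven. Its CPM over the median of the other 4 AppSAA libraries had a median of 2.39 over the 46 genes, from 1.02 (IFI16) to 6.59 (IFITM1). The ratio was at least 1.5 for 38 genes (82.6%), against 6.21% of all genes, and at least 2 for 28 genes, against 2.03% of all genes. By role its median was highest for the membrane-associated restriction factors (3.63) and ISG15 conjugation (3.08), and lowest for the PARP9 and DTX3L group (1.83) and the transcription factors (1.497). Among genes with a promoter window, the median ratio was 2.78 for the 27 with an ISRE core and 1.62 for the 10 without, and the ranges of 1.09 to 6.59 and 1.02 to 2.78 overlapped. AppHu replicate 7, set against the other 4 AppHu libraries in the same way, had a median ratio of 1.36 and at least 1.5 for 17 genes, against 7.47% of all genes.

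**Figure D4:**
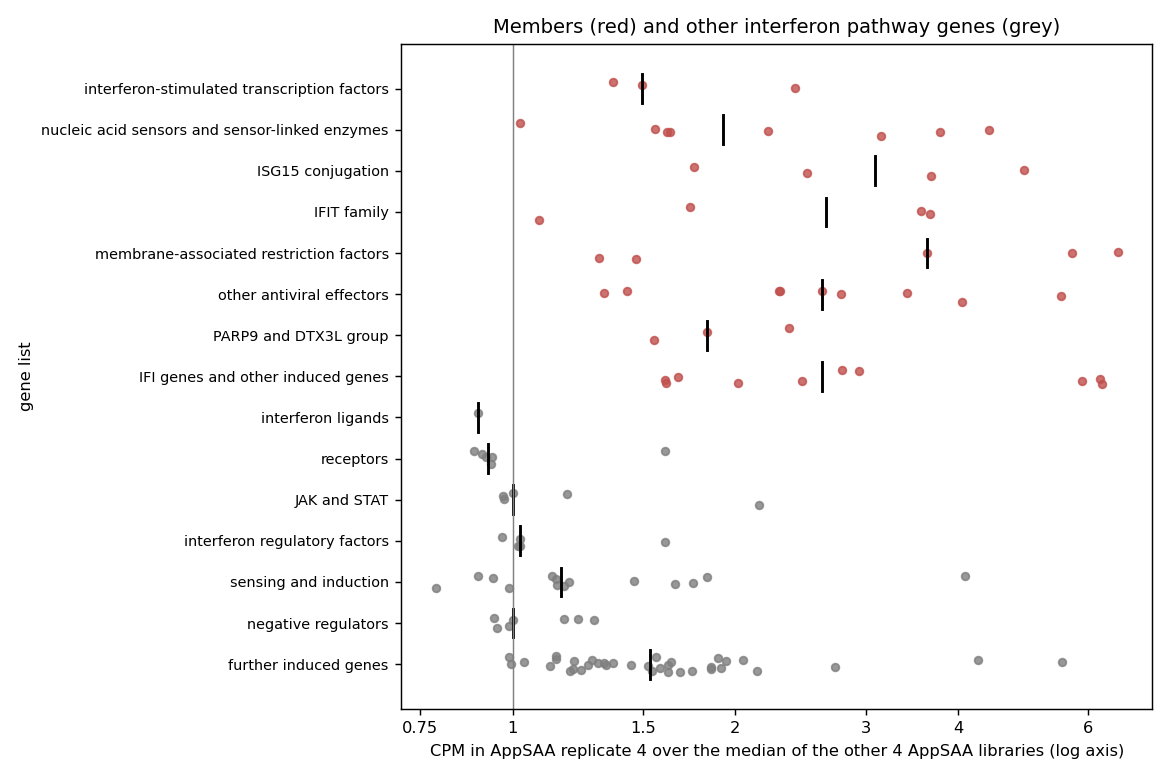
Points give, on a log axis, the CPM of each tested gene in AppSAA replicate 4 over the median of the other 4 AppSAA libraries, and black bars the median of each list, with the 46 genes in red and other interferon pathway genes in grey. The lists of the 46 genes have medians of 1.497 to 3.63. Among the grey lists, further induced genes have a median of 1.53 and sensing and induction genes of 1.16, and receptors, JAK and STAT genes and interferon regulatory factors have medians of 0.928, 1.00 and 1.02.

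The transcription factors of the list are STAT2 and IRF9, both parts of ISGF3, and IRF7, which drives the later wave of interferon-α genes. STAT2 (chr12:56341597-56360203) had 254, 260, 266, 275 and 265 CPM in AppHu and 340, 247, 249, 251.8 and 248 CPM in AppSAA. The other 4 AppSAA libraries lay below every AppHu library, and AppSAA replicate 4 above them all. Its log2 fold change was 0.016 (SE 0.087, adjusted p = 0.975 by edgeR) with that library and -0.085 (SE 0.050, adjusted p = 0.684 by edgeR) without it.

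IRF9 (chr14:24161234-24168043) had 225, 186, 177, 312 and 231 CPM in AppHu and 331, 217, 225, 213 and 242 CPM in AppSAA. Here AppSAA replicate 4 and AppHu replicate 7 were both high, and the log2 fold change was 0.12 (SE 0.16, adjusted p = 0.876 by edgeR). Of the exonic bases of IRF9, 27.2% overlap other annotated genes, and 17.0% of the 100-base stretches of its transcripts also occur in transcripts of another gene, so its counts are less certain. IRF7 (chr11:612553-615983) had 57.2, 45.2, 29.7, 81.1 and 62.9 CPM in AppHu and 130, 12.6, 48.2, 59.3 and 60.3 CPM in AppSAA. Its highest and lowest libraries, AppSAA replicates 4 and 5, were 10.3-fold apart. AppSAA replicate 5 was the lowest of the 10 libraries for 17.8% of all genes and the highest for 13.1%. The IRF7 log2 fold change was 0.17 (SE 0.44, adjusted p = 0.948 by edgeR).

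The sensors comprise IFIH1, the cytosolic receptor MDA5 for long double-stranded RNA, IFI16, which binds DNA, the RNA-dependent kinase EIF2AK2 (PKR), the helicase DDX60, and the oligoadenylate synthetases OAS1, OAS2 and OAS3, whose product activates RNase L, with the related OASL. IFI16 (chr1:158999968-159055155) was the most even member, with 624, 567, 609, 557 and 538 CPM in AppHu and 576, 590, 570, 557 and 529 CPM in AppSAA. Its libraries differed at most 1.18-fold, and its log2 fold change was -0.037 (SE 0.056, adjusted p = 0.894 by edgeR). OASL (chr12:121017763-121039246) had 12.02, 6.83, 7.61, 13.4 and 8.73 CPM in AppHu and 38.3, 10.8, 10.5, 13.5 and 14.9 CPM in AppSAA. Its groups overlapped in part, since AppHu replicates 3 and 7 reached the lower AppSAA libraries. Its mean was 9.71 ± 2.85 CPM (SD, n = 5) in AppHu and 17.6 ± 11.7 CPM (SD, n = 5) in AppSAA, and the log2 fold change was 0.86 (SE 0.34, adjusted p = 0.426 by edgeR; exact permutation p = 0.0794). Without AppSAA replicate 4 it was 0.36 (SE 0.21, adjusted p = 0.678 by edgeR).

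The 3 OAS genes lie side by side on chromosome 12, OAS1 and OAS3 4831 bases apart and OAS3 and OAS2 1934 bases apart. OAS1 was more even than its neighbours, with 378 CPM in AppSAA replicate 4 and 230 to 299 CPM elsewhere. OAS2 had 201 CPM there and 38.8 to 83.7 CPM elsewhere, and OAS3 had 274 CPM there and 35.3 to 106 CPM elsewhere. IFIH1 stayed between 6.37 and 12.7 CPM and DDX60 between 49.3 and 100 CPM. EIF2AK2 had 182 CPM in AppSAA replicate 4, 144 CPM in AppHu replicate 7 and 56.1 to 105 CPM elsewhere.

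ISG15 is a ubiquitin-like protein that HERC5 attaches to newly made proteins and USP18 removes; USP18 also blocks signalling at IFNAR2. ISG15 (chr1:1001138-1014540) had 20.6, 12.6, 12.1, 20.3 and 17.8 CPM in AppHu and 84.2, 17.7, 13.3, 16.6 and 22.4 CPM in AppSAA. The AppSAA libraries other than replicate 4 spanned about the same values as the AppHu libraries. The means were 16.7 ± 4.09 CPM (SD, n = 5) and 30.8 ± 30.0 CPM (SD, n = 5), and the second fell to 17.5 ± 3.74 CPM (SD, n = 4) without replicate 4. The log2 fold change was 0.89 (SE 0.45, adjusted p = 0.563 by edgeR; exact permutation p = 0.373) and 0.072 (SE 0.20, adjusted p = 0.949 by edgeR) without that library.

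HERC5 (chr4:88457119-88506163) had 8.96, 8.83, 10.6, 15.2 and 10.3 CPM in AppHu and 23.1, 9.16, 11.7, 16.9 and 14.5 CPM in AppSAA. AppSAA replicate 7 was also above all 5 AppHu libraries, and AppSAA replicate 8 above 4 of them. For HERC5 the log2 fold change was 0.49 (SE 0.23, adjusted p = 0.528 by edgeR) and 0.28 (SE 0.20, adjusted p = 0.763 by edgeR) without replicate 4. USP18 had 22.8 CPM in AppSAA replicate 4 and 4.16 to 8.09 CPM elsewhere, although 15.5% of its 100-base stretches recur in USP41 and 2 other annotated genes. HERC6, the neighbour of HERC5, had 81.1 CPM there and 26.5 to 45.2 CPM elsewhere.

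The IFIT proteins bind viral RNA, in particular RNA without the methylated cap of host messages. The 4 IFIT genes of the list lie on chromosome 10 in the order IFIT2, IFIT3, IFIT1 and IFIT5. The distances between them are 18035, 15072 and 8080 bases, and other genes within these stretches were not looked up. IFIT2 (chr10:89283694-89309271) had 192, 133, 113, 219 and 175 CPM in AppHu and 328, 190, 171, 188 and 223 CPM in AppSAA. AppHu replicates 4 and 6 were the low libraries, and the log2 fold change was 0.40 (SE 0.20, adjusted p = 0.553 by edgeR; exact permutation p = 0.175). It was 0.21 (SE 0.17, adjusted p = 0.793 by edgeR) without AppSAA replicate 4. IFIT1 had 216 CPM in AppSAA replicate 4 and 36.1 to 90.7 CPM elsewhere, and IFIT3 had 221 CPM there and 32.5 to 81.5 CPM elsewhere. IFIT5 did not follow its neighbours. It had 22.6 CPM in AppSAA replicate 4, inside the 10.1 to 26.8 CPM of the other libraries.

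Among the membrane-associated factors, IFITM1, IFITM2 and IFITM3 hinder the fusion of viral with cellular membranes, BST2 (tetherin) holds budding virions at the cell surface, and LY6E blocks coronavirus entry. IFITM1 (chr11:310041-315272) had 0.792, 1.22, 0.871, 0.875 and 0.951 CPM in AppHu and 7.27, 1.03, 0.503, 1.18 and 1.72 CPM in AppSAA. All libraries except AppSAA replicate 4 were near 1 CPM. The log2 fold change of 1.31 (SE 0.59, adjusted p = 0.491 by edgeR; exact permutation p = 0.357) was the largest of the list and became 0.24 (SE 0.34, adjusted p = 0.898 by edgeR) without that library. The counts are uncertain, because 20.3% of the 100-base stretches of IFITM1 and 19.1% of those of IFITM3 occur in other genes, and 31.6% of the exonic bases of IFITM1 overlap other annotated genes.

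BST2 (chr19:17402939-17405630) had the highest level per exon length of the list, 167 CPM per kb, followed by IFI16 with 108 and IFI6 with 78.3 CPM per kb. It had 180, 169, 163, 217 and 193 CPM in AppHu and 245, 187, 161, 148 and 172 CPM in AppSAA. Its libraries overlapped broadly, and its log2 fold change was -0.013 (SE 0.13, adjusted p = 0.987 by edgeR). IFITM3 had 127 CPM in AppSAA replicate 4 and 29.4 to 44.8 CPM elsewhere, whereas IFITM2 ranged from 57.9 to 86.3 CPM over all libraries. LY6E had 110 CPM in AppSAA replicate 4, 58.1 CPM in AppHu replicate 7 and 13.7 to 34.8 CPM elsewhere.

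The other antiviral effectors include the dynamin-like GTPases MX1 and MX2, the radical SAM enzyme RSAD2 (viperin), the nucleotide kinase CMPK2 beside it, the exonuclease ISG20, SAMD9 and SAMD9L, TRIM22 and the guanylate-binding protein GBP1. MX1 (chr21:41420020-41470071) had 165, 97.3, 87.2, 189 and 133 CPM in AppHu and 390, 94.1, 105, 124 and 149 CPM in AppSAA. The means were 134 ± 43.3 CPM (SD, n = 5) and 172 ± 123 CPM (SD, n = 5), and without replicate 4 the AppSAA mean of 118 ± 24.3 CPM (SD, n = 4) was below that of AppHu. MX1 had a log2 fold change of 0.36 (SE 0.36, adjusted p = 0.818 by edgeR; exact permutation p = 0.706) and -0.19 (SE 0.22, adjusted p = 0.875 by edgeR) without that library. MX2, 10626 bases from MX1, had 90.5 CPM in AppSAA replicate 4 and 29.1 to 49.1 CPM elsewhere.

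GBP1 (chr1:89051882-89065360), which is induced above all by interferon-γ, was the member closest to a difference between the genotypes. It had 4.68, 3.66, 2.92, 7.48 and 4.08 CPM in AppHu and 22.1, 6.65, 4.74, 10.4 and 9.22 CPM in AppSAA. All 5 AppSAA libraries were above 4 of the 5 AppHu libraries, and only AppHu replicate 7 reached into their range. The means were 4.56 ± 1.75 CPM (SD, n = 5) and 10.6 ± 6.78 CPM (SD, n = 5), and 7.76 ± 2.56 CPM (SD, n = 4) in AppSAA without replicate 4. For GBP1 the log2 fold change was 1.22 (SE 0.38, adjusted p = 0.269 by edgeR; exact permutation p = 0.0317). GBP1 passed the threshold in DESeq2 (adjusted p = 0.0472), and the alternatives gave adjusted p values between 0.0472 and 0.715. Without AppSAA replicate 4 its log2 fold change was 0.77 (SE 0.29, adjusted p = 0.449 by edgeR).

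RSAD2 had 195 CPM in AppSAA replicate 4 and 24.9 to 74.9 CPM elsewhere. CMPK2 overlaps its first bases on the opposite strand and had 20.4 CPM in that library and 6.57 to 11.8 CPM elsewhere. SAMD9L had 299 CPM in AppSAA replicate 4 and 102 to 170 CPM elsewhere, but its neighbour SAMD9 had 118 CPM there and 81.8 to 95.0 CPM elsewhere. TRIM22 ranged from 441 to 650 CPM. ISG20 was the lowest member per exon length, with 4.00 CPM in AppSAA replicate 4, 1.94 CPM in AppHu replicate 3 and 0.477 to 1.66 CPM elsewhere.

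**Figure D5:**
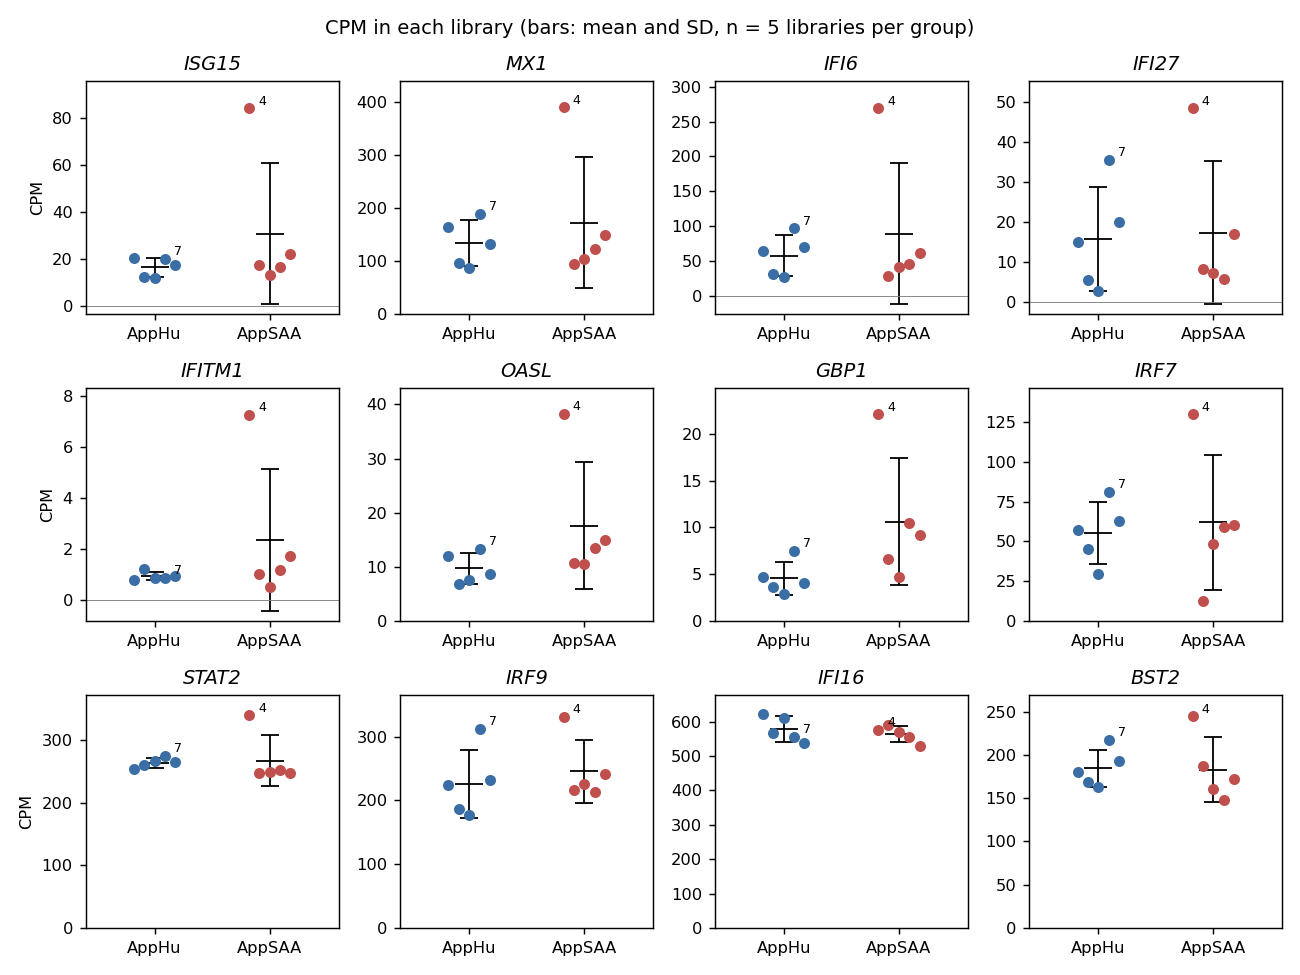
Points give the CPM of 12 of the genes in each library, AppHu in blue and AppSAA in red, with AppHu replicate 7 and AppSAA replicate 4 numbered and bars for the mean and SD (n = 5 libraries per group). AppSAA replicate 4 is highest in every panel except IFI16, where the libraries lie between 529 and 624 CPM.

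PARP9 and DTX3L form a complex that modifies histones, and PARP14 is a related ADP-ribosyltransferase. PARP14 (chr3:122680839-122730840) had 460, 390, 376, 523 and 416 CPM in AppHu and 766, 405, 370, 432 and 446 CPM in AppSAA. Apart from AppSAA replicate 4 the groups overlapped broadly, and the log2 fold change was 0.16 (SE 0.17, adjusted p = 0.839 by edgeR). PARP9 had 308 CPM in AppSAA replicate 4 and 125 to 187 CPM elsewhere, and DTX3L, which shares its promoter site, had 229 CPM there and 116 to 177 CPM elsewhere.

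The last group holds the IFI genes, EPSTI1, XAF1, the nuclear body protein SP110, RTP4 and the chemokine CXCL10, which attracts T cells. IFI27 (chr14:94104836-94116695) had 15.0, 5.45, 2.75, 35.5 and 19.97 CPM in AppHu and 48.4, 8.36, 7.21, 5.68 and 17.0 CPM in AppSAA. It had the widest spread of the list, 17.6-fold, and both groups held low and high libraries. Its log2 fold change was 0.14 (SE 0.68, adjusted p = 0.974 by edgeR) and -0.71 (SE 0.61, adjusted p = 0.811 by edgeR) without AppSAA replicate 4. IFI6 (chr1:27666064-27672212) had 63.9, 30.7, 26.2, 96.6 and 70.6 CPM in AppHu and 269, 27.7, 40.9, 45.0 and 61.9 CPM in AppSAA. AppHu replicate 7 was again the second highest, and the log2 fold change was 0.63 (SE 0.58, adjusted p = 0.799 by edgeR) and -0.39 (SE 0.36, adjusted p = 0.831 by edgeR) without AppSAA replicate 4. IFI44L showed the same order of libraries at the top, with 581 CPM in AppSAA replicate 4, 293 CPM in AppHu replicate 7 and 58.0 to 209 CPM elsewhere.

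SP110 (chr2:230165186-230225729) had 87.1, 82.3, 81.8, 103 and 88.5 CPM in AppHu and 152, 96.0, 93.4, 90.5 and 113 CPM in AppSAA. As with GBP1, all 5 AppSAA libraries were above 4 of the 5 AppHu libraries, with AppHu replicate 7 as the exception. The log2 fold change was 0.30 (SE 0.13, adjusted p = 0.482 by edgeR; exact permutation p = 0.0714) and 0.15 (SE 0.089, adjusted p = 0.688 by edgeR) without AppSAA replicate 4. RTP4 (chr3:187368385-187372076), a chaperone of membrane receptors, had 5.87, 3.84, 6.49, 5.58 and 5.71 CPM in AppHu and 10.3, 5.97, 8.56, 6.37 and 5.62 CPM in AppSAA. Its log2 fold change was 0.42 (SE 0.20, adjusted p = 0.517 by edgeR) and 0.27 (SE 0.18, adjusted p = 0.747 by edgeR) without that library.

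The remaining genes of this group kept AppSAA replicate 4 on top. XAF1 had 558 CPM there, 399 CPM in AppHu replicate 7 and 152 to 245 CPM elsewhere, although 31.2% of its 100-base stretches recur in the transcript PRAL. IFI44 had 95.4 CPM there and 25.9 to 66.4 CPM elsewhere, EPSTI1 133 CPM and 47.3 to 89.4 CPM, and IFI35 50.9 CPM and 25.7 to 33.8 CPM. CXCL10 had a library order of its own. It had 108 CPM in AppSAA replicate 4, then 73.2 CPM in AppHu replicate 3, 58.5 and 52.6 CPM in AppSAA replicates 5 and 8, and 12.9 to 25.6 CPM in the other 6.

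Upstream of these genes, transcripts of the interferons themselves were scarce. Of 21 interferon genes, 13 had 0 counts in all 10 libraries, IFNG among them. IFNB1 had 0, 5, 1, 7 and 0 counts in AppHu and 6, 0, 0, 0 and 0 counts in AppSAA, and IFNA1 had 0 to 6 counts per library. Only IFNE, with 24 to 79 counts, passed the filter. In AppSAA replicate 4, with 28510903 human counts, an observed count of 0 leaves room for an expected count of up to about 3. IFNA1 had 0 counts in AppSAA replicate 4. The highest IFNB1 counts were 7 in AppHu replicate 7 and 6 in AppSAA replicate 4, followed by 5 in AppHu replicate 4. These counts are too few to compare libraries.

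Transcripts of IFNAR1, IFNAR2, IFNGR1, IFNGR2, JAK1 and TYK2 were level in AppSAA replicate 4. That library was the highest for 1 of the 6 listed receptors and 2 of the 5 JAK and STAT genes, against 10.5% of all genes. In AppHu and AppSAA, respectively, IFNAR1 had 216 ± 14.0 and 213 ± 15.97 CPM (SD, n = 5 each), with a log2 fold change of -0.024 (SE 0.067, adjusted p = 0.954 by edgeR). IFNAR2 had 17.3 ± 5.62 and 17.1 ± 7.85 CPM, JAK1 72.9 ± 6.41 and 73.0 ± 2.31 CPM, and TYK2 266 ± 14.5 and 262 ± 8.20 CPM (SD, n = 5 each). IFNGR1 had 3484 ± 271 and 3689 ± 194 CPM, and IFNGR2 49.2 ± 3.85 and 49.6 ± 3.12 CPM (SD, n = 5 each). In AppSAA replicate 4 these 6 genes lay at 0.888 to 1.00 times the median of the other AppSAA libraries.

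IRF1, a transcription factor that interferon-γ induces rapidly, had 48.1 CPM in AppSAA replicate 4 and 29.7 to 34.7 CPM in the other 9 libraries. IRF3, which is activated by phosphorylation rather than induced, had 34.5 ± 0.883 and 38.1 ± 2.30 CPM (SD, n = 5 each; log2 fold change 0.14, adjusted p = 0.498 by edgeR; exact permutation p = 0.0238). IRF8, a lineage factor of microglia, had 260 CPM in AppSAA replicate 5 and 691 to 1203 CPM elsewhere. The kinase TBK1 had 130 ± 4.37 and 135 ± 12.7 CPM (SD, n = 5 each). The DNA-sensing adaptor STING1, listed as TMEM173, had 568 ± 46.5 and 456 ± 57.0 CPM (SD, n = 5 each; log2 fold change -0.32, SE 0.089, adjusted p = 0.220 by edgeR), with its lowest value, 365 CPM, in AppSAA replicate 4. SOCS1, an inhibitor of JAK kinases, stayed below 0.1 CPM and was not tested.

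Of 104 further genes of the interferon pathway, 100 were in the table and 74 were tested. edgeR called 0 of these 74, against 0.0776% of all human genes, and 12 had an unadjusted p below 0.05, against 9.8%. DESeq2 called 2, TLR7 and GBP3, against 1.39%. TLR7, the endosomal receptor for single-stranded RNA, had 1421 ± 46.3 CPM (SD, n = 5) in AppHu and 1151 ± 68.5 CPM (SD, n = 5) in AppSAA without overlap. Its log2 fold change was -0.30 (SE 0.052, adjusted p = 0.0548 by edgeR), with values between 0.000148 (DESeq2) and 0.233 among the alternatives. GBP3 had 7.94 ± 1.61 and 12.3 ± 1.32 CPM (SD, n = 5 each), again without overlap, and a log2 fold change of 0.63 (SE 0.15, adjusted p = 0.147 by edgeR). The alternatives gave adjusted p values between 0.0100 (DESeq2) and 0.378. Without AppSAA replicate 4 the log2 fold changes were -0.30 for TLR7 and 0.59 for GBP3 in edgeR. DESeq2 without that library, chosen after seeing the data, still called TLR7 (adjusted p = 0.00303) but not GBP3 (adjusted p = 0.0571). Among the 36 tested genes that interferon induces outside the list, AppSAA replicate 4 was the highest library for 23, and the sialic acid receptor SIGLEC1 stood at 229 CPM there and at 30.1 to 92.2 CPM elsewhere.

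The sorted cells carried microglial transcripts throughout. P2RY12 ranged from 11871 to 16313 CPM and CX3CR1 from 7349 to 9656 CPM, and their lowest values, like those of TMEM119, CSF1R and GPR34, were in AppSAA replicate 4. The summed level of 10 microglial markers was 34992 CPM in that library, 40532 to 45835 CPM in AppHu, and at most 44161 CPM in AppSAA. The 6 markers of CNS-associated macrophages summed to 2806 CPM there, 3415 to 4058 CPM in AppHu, and at most 3773 CPM in AppSAA. Neither set thus moved up with the interferon-stimulated genes. The log2 fold change was below 0 for all 6 macrophage markers, with a median of -0.51, and of -0.49 without AppSAA replicate 4. DESeq2 called 1 of these 6, against 1.39% of all genes, and edgeR called 0, against 0.0776%. Of 8 markers of monocytes and neutrophils, 3 were tested, and AppSAA replicate 4 was the highest library for 1 of these. S100A8 and S100A9, both low in the other libraries, were higher in AppSAA replicate 4. S100A8 had 15.7 CPM in AppSAA replicate 4 and 0.180 to 1.30 CPM elsewhere, and S100A9 had 5.96 CPM and 0.164 to 0.415 CPM. Of the same list, S100A12, FCN1 and MPO were at 0 in all 10 libraries. The 8 markers together summed to 956 CPM in AppSAA replicate 4, against 933 to 1054 CPM in AppHu. A single gene of this list reached 37433 counts in a library, so the sum can hide changes of low markers such as S100A8 and S100A9.

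The 8 markers of T, B and NK cells summed to at most 4.82 CPM in any library. Among 5 markers of plasmacytoid dendritic cells, CLEC4C and GZMB did not exceed 0.036 CPM in any library, and the 5 summed to 325 CPM in AppSAA replicate 4, the lowest of the AppSAA libraries. LILRA4 of this list was lower in every AppHu than in every AppSAA library (29.3 ± 1.77 and 43.0 ± 5.43 CPM, SD, n = 5 each; adjusted p = 0.0548 by edgeR), with its lowest AppSAA value in replicate 4. DESeq2 called 1 of the 3 tested markers of this list, against 1.39% of all genes. The 8 markers of neurons and glia, of which AQP4 and MOG were at 0 throughout, summed to 43.2 CPM there and 40.3 to 64.5 CPM in AppHu. The 4 pluripotency markers summed to at most 0.591 CPM in any library. AppSAA replicate 4 also had the smallest share of mouse counts (2.12%, against 2.74% to 4.97% in the other libraries), and with that share as a covariate the median log2 fold change of the 46 genes was -0.016 and 20 were above 0. The part of these differences in the levels of the 46 genes was not tested. In bulk samples, fewer cells with high levels and lower levels per cell cannot be told apart.

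Counts on the mouse counterparts of these genes were few. Of 39 mouse orthologs in the table, 25 passed the filter among 9376 mouse genes, and edgeR called 0 of the 25 and 0 of all mouse genes (878 had an unadjusted p below 0.05). The 39 orthologs held 843 to 1609 counts per library, 88.3 to 235 times fewer than the 46 human genes. Mouse genes took only 2.12% to 4.97% of all counts, and these ratios are not scaled for that. AppSAA replicate 4 was the highest library for 7 of the 25 tested orthologs, the largest number of any library. The share of all mouse genes highest in that library was not computed, so this number has no background. That library also had the fewest mouse counts (617463, against 799957 to 1612222 elsewhere). The orthologs summed to 1867 mouse CPM there, 959 to 1066 mouse CPM in AppHu and 1012 to 1556 mouse CPM in the other AppSAA libraries. Of these sums, Ly6e alone made up 555 mouse CPM in AppSAA replicate 4 and 155 to 480 mouse CPM elsewhere.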

How the data were processed

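The labels assign 5 libraries to each genotype. The authors sorted hMG, made cDNA with SMART-Seq HT PLUS, aligned single reads with STAR 2.7.11a to a combined mm10 and GRCh38 database and counted with featureCounts 2.0.1. The deposited values are raw counts per gene; annotation release and strand setting are not given in the sources used here.

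A human gene was kept if 6 or more of the 10 libraries had 10 or more counts (15455 genes). Testing used edgeR 4.0.16 in R 4.3.3 (TMM scaling, quasi-likelihood, Benjamini-Hochberg, threshold 0.05), without covariates. DESeq2 1.42.0, limma 3.58.1, other filters, scalings and covariates, thinning, a replicate block and leaving out each library were alternatives. The fits were tested on simulated data. Permutation tests were exact and two-sided on log2 CPM, over 252 arrangements of 5 against 5 libraries. Positions and exon lengths (all exons merged) are from GENCODE 44 on GRCh38. No duplicated library was found. Each library is from 1 host mouse, and p-values cover the spread between these libraries.

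Genes given in full were those with the 8 smallest p, the 4 highest levels per kb and the 4 widest ranges, plus STAT2, IRF9, ISG15 and MX1; values of other genes were chosen after they were seen. The genes and all lists were chosen with earlier results of these data known. Protein sequences were not used here, and the values of 1 further pathway gene are not reported here.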

Additional observations from a re-analysis of the deposited data

Results flagged for a closer look

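Values were set apart where the gap between an extreme library and the nearest other, divided by the range of the group, exceeded Dixon's 95% critical value for groups of 5 libraries. Chance sets apart about 1 in 20 groups. Over all 46 genes, 26 were set apart in AppSAA, all by a high AppSAA replicate 4, against 6.93% of all human genes, and 4 in AppHu, against 5.32%. Among the genes described in full, AppSAA replicate 4 was set apart as the highest AppSAA library for STAT2 (0.952), ISG15 (0.872), IFI6 (0.858), OASL (0.841), IFITM1 (0.820), MX1 (0.813), PARP14 (0.809), IRF9 (0.757) and IFI27 (0.736). The same library was set apart for the share of human counts on the 46 genes (0.810) and for IRF1 (0.962).

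AppSAA replicate 5 was set apart as the lowest AppSAA library for IRF8 (0.731). In AppHu, the highest library was set apart for HERC5 (replicate 7, 0.724), for IRF1 and TLR7 (replicate 8, 0.832 and 0.745), and for JAK1 and IFNGR2 (replicate 6, 0.783 and 0.727). The causes were not tested.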

How the results depend on the processing

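The count of the 46 genes past the threshold was 0 in every alternative except DESeq2, which called 1 (GBP1, lost again without AppSAA replicate 4). The number of all human genes past it was 12; it was 215 in DESeq2 (169 without AppSAA replicate 4), 52 in limma-voom, 32 without a filter, 1 with the human total and 5 with the mouse share as a covariate, and 2 to 34 with single libraries left out. The median log2 fold change of the 46 genes stayed between 0.23 and 0.31 under other tests, scalings, filters, thinning or the human total, and between -0.050 (without AppSAA replicate 4) and 0.42 (without AppHu replicate 7) with single libraries left out. It was -0.016 with the mouse share and 0.027 without both AppSAA replicate 4 and AppHu replicate 7, an alternative chosen after seeing the data, which left 2 human genes past the threshold. Same-numbered libraries correlated at 0.066, 0.035, 0.19 and 0.12, and differently numbered ones at -0.249 to 0.285. Since the first values lie within the range of the second, they cannot decide whether the numbers pair the samples. A replicate block on the 8 libraries with shared numbers gave 58 human genes, 0 of the 46 and a median of 0.38; the same 8 libraries without it gave 6 genes and a median of 0.42.

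The remaining values are log2 fold changes of named genes, of which 78 of 720 changed sign, none of them past the threshold. With the mouse share as a covariate, STAT2 was at -0.074, IRF7 at -0.19, IRF9 at -0.034, MX1 at -0.14, PARP14 at -0.093, IFI6 at -0.15, IFI27 at -0.45, IRF1 at -0.028 and TBK1 at -0.036. In DESeq2 without AppSAA replicate 4, chosen after seeing the data, STAT2 was at -0.092, IRF7 at -0.30, IRF9 at -0.020, MX1 at -0.19, PARP14 at -0.073, IFI6 at -0.40, IFI27 at -0.73, IRF1 at -0.087 and IFNAR2 at 0.037. Without AppSAA replicate 4 and AppHu replicate 7, STAT2 was at -0.071, IRF7 at -0.11, MX1 at -0.030, IFI6 at -0.12, IFI27 at -0.17, IRF1 at -0.086, IFNAR2 at 0.22 and JAK1 at -0.0062. Upper-quartile factors gave 0.0043 for BST2 and 0.0079 for IFNAR2, and the human total gave -0.12 for IFI27, 0.23 for IFNAR2 and -0.0065 for JAK1. The replicate block gave 0.10 for IFNAR2, 0.078 for IRF8 and -0.012 for JAK1, and the same 8 libraries without it 0.12, 0.059 and -0.017. IFNAR2 was at 0.021 after thinning and IFNGR2 at -0.00011 without a filter. JAK1 was at -0.0034 in DESeq2, -0.0032 with RLE factors, -0.00066 with the filter at 5 libraries, -0.00073 with filterByExpr and -0.0073 without a filter.

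With single libraries left out, values ranged from -0.085 to 0.042 for STAT2, -0.29 to 0.43 for IRF7, -0.013 to 0.26 for IRF9, -0.14 to 0.053 for BST2, -0.19 to 0.52 for MX1, -0.067 to 0.24 for PARP14, -0.39 to 0.90 for IFI6 and -0.71 to 0.69 for IFI27, with the lowest value of each without AppSAA replicate 4. They ranged from -0.26 to 0.17 for IFNAR2, -0.018 to 0.058 for IFNGR2, -0.081 to 0.13 for IRF1, -0.30 to 0.073 for IRF8, -0.023 to 0.058 for JAK1 and -0.050 to 0.0050 for TYK2. The causes were not tested, except that changes without AppSAA replicate 4 follow from leaving that library out. TLR7 passed the threshold in limma-voom, without a filter, with the replicate block and without AppSAA replicate 5 too. With 5 libraries a group, low genes such as IFITM1 (12 counts in AppSAA replicate 6) rest on few counts.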
